A study of Mus musculus with 4 samples.

Results

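The glucocorticoid receptor, the related mineralocorticoid receptor, an enzyme that supplies their ligand and 7 genes known to respond to glucocorticoid were followed in mouse brain cortex. The 10 members were Nr3c1, Nr3c2, Hsd11b1, Fkbp5, Tsc22d3, Zbtb16, Sgk1, Per1, Pdk4 and Sult1a1, out of 19505 genes named on the array, and each had 1 transcript cluster (the set of probes that stands for a gene). They were proposed from known biology with the TCQA and water values of these same arrays in view, so that their differences between the groups are a description and carry no test.

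The samples came from males of SAMR1, the inbred mouse strain that serves as the senescence-resistant partner of the SAMP strains. One group received TCQA, a plant polyphenol built of caffeic acid units on quinic acid (the labels do not spell the abbreviation out), as a daily oral dose of 5 mg/kg over 1 month from 11 months of age. The control group received MilliQ water. All mice of both groups had been caged singly for 4 months from an age of 7 months, a condition that the controls share, and no group-housed mice were analysed here. Each group had 2 Clariom S arrays, 4 in all, and the labels do not say whether an array held RNA of 1 mouse or of several, so that p-values measure only how far these samples lie apart, a spread that may be technical.

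Glucocorticoids from the adrenal gland (corticosterone in mice) enter the brain and bind a pair of nuclear receptors. The mineralocorticoid receptor binds the hormone more tightly, and the glucocorticoid receptor is engaged further as levels rise with stress or with the daily rhythm. The bound receptor leaves its chaperone complex, moves to the nucleus and binds short palindromic DNA elements near its target genes. Among these targets is Fkbp5, whose product lowers the receptor's hormone affinity, so that its transcript is widely used as a readout of receptor activity.

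The start-site windows of the response genes show where such an element can lie. RefSeq windows on GRCm38.p6, from 250 bases before to 50 bases after a transcription start, were matched by symbol for 8 of the 10 members, 16 windows in all, and none was used for Nr3c1 or Zbtb16. The full receptor element was searched as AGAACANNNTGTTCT, the hexamer of either arm as AGAACA or TGTTCT, and the clock-factor E-box as CACGTG, on both strands. The full element occurred in 3 of 32851 windows of all genes (0.00913%), the hexamer in 19% and the E-box in 7.15%. Of the 6 Sgk1 windows, the one at chr10:21993640-21993939 (plus strand) held the full element, with its first base at position -189 from the start. That window also held a further hexamer at -242, which overlaps an E-box at -246. Outside Sgk1, hexamers without the full element were found in a Tsc22d3 window at chrX:140600473-140600772 (minus strand, position -185) and in the Sult1a1 window at chr7:126676369-126676668 (minus strand, positions -212 and -34). The Fkbp5 window at chr17:28486100-28486399 (minus strand) and a Per1 window at chr11:69098699-69098998 (plus strand) held no hexamer and an E-box each, at -169 and -166. They are printed 5′ to 3′ on the gene's strand, with the hexamers and the full element in capitals for Sgk1, Tsc22d3 and Sult1a1 and the E-box in capitals for Fkbp5 and Per1. A match is a stretch of letters and not a measured site, and a missing match covers this window only.
Sgk1: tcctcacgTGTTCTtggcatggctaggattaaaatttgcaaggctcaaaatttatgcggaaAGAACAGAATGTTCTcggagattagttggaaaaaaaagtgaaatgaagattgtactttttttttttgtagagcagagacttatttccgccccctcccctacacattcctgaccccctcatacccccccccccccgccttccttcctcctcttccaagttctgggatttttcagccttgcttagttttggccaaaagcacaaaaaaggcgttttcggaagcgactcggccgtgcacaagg
Tsc22d3: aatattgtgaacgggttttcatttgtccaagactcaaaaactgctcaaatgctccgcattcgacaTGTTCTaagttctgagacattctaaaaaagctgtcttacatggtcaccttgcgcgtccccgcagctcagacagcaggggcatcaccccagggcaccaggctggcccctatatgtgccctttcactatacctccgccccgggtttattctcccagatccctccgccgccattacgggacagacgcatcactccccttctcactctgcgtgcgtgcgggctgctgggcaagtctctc
Sult1a1: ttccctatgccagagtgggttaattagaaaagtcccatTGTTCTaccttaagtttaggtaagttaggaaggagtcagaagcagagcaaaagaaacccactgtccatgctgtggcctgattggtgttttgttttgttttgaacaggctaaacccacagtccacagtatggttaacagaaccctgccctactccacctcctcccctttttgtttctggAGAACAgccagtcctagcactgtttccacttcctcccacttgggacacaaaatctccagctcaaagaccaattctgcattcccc
Fkbp5: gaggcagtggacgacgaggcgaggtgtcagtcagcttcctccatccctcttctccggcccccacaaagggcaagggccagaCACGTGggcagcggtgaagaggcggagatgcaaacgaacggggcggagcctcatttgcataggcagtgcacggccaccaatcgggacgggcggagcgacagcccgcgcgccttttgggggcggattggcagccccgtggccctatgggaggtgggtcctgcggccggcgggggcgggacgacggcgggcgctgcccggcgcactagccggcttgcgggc
Per1: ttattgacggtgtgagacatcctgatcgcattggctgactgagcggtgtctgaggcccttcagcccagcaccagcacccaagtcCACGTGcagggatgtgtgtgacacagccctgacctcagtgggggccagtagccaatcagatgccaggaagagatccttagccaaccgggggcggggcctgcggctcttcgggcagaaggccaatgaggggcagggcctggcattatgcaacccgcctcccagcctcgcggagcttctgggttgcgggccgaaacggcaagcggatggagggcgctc

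Values are log2 signals per transcript cluster as deposited, in which a difference of 1 is a 2-fold change. Array medians ranged over 6.98 to 7.04. Negative control probe sets had a median of 6.98 and a 95th percentile of 11.06. All 10 members lay above that median on every array, and 4 of them (Fkbp5, Tsc22d3, Zbtb16 and Sgk1) lay above the 95th percentile on every array. The sizes of the other differences are therefore less certain. The 11 measured markers of excitatory cortical neurons averaged 12.24 and 12.22 in the TCQA arrays, against 11.68 and 12.14 in the water arrays, lowest in water 1, and 0 of the 11 had a mean below the negative control median. Actb, Gapdh and Hprt differed by 0.02, -0.09 and 0.26 between TCQA and water.

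The arrays were not alike in tissue markers. Choroid plexus markers averaged 7.01 and 6.35 in TCQA 1 and 2, against 8.29 and 7.74 in water 1 and 2, with 13 of 14 genes lower in TCQA. Their median difference was -1.15, and between -0.97 and -1.54 with an array left out. Of the 14, 10 were lower with an unadjusted p under 0.05 by limma, beside 3.89% of all transcript clusters. A mean below the negative control median was found for 8 of the 14. In water 1, markers of striatum averaged 13.72 (12.77, 12.23 and 12.54 in TCQA 1, TCQA 2 and water 2) and those of oligodendrocytes 11.41 (10.82, 10.78 and 10.90). All 10 striatal and 10 of 11 oligodendrocyte markers were lower in TCQA, and the striatal median of -0.68 was -0.04 without water 1. In TCQA 2, markers of olfactory bulb averaged 8.10 (6.42, 6.84 and 6.74 in TCQA 1, water 1 and water 2), and 7 of 11 were higher in TCQA, but only 2 of 11 without TCQA 2, with a median of -0.32. Several values below that turned on TCQA 2 or water 1 are given with and without that array. The other 9 marker lists had median differences between -0.09 for thalamus and 0.33 for inhibitory neurons, and both ends turned on TCQA 2, without which they were -0.71 and -0.06. Thalamic markers were uneven, averaging 8.24 and 9.08 in TCQA 1 and 2, against 9.31 and 8.64 in water 1 and 2. Of the 12, 3 were lower in TCQA with an unadjusted p under 0.05 by limma, beside 3.89% of all transcript clusters. The thalamic median was 0.12 without TCQA 1 and -0.03 without water 1.

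Both receptors read slightly lower in the TCQA arrays. Nr3c1, the glucocorticoid receptor, read 8.65 and 8.27 in the TCQA arrays, against 8.78 and 8.76 in the water arrays. Both TCQA arrays lay below both water arrays, by a gap of 0.10, while the TCQA arrays themselves were 0.38 apart. The difference was -0.31 (SE 0.21, n = 2 per group), and it was -0.12 without TCQA 2 and -0.50 without TCQA 1. In bulk tissue, fewer cells of a type and less RNA per cell cannot be told apart.

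Nr3c2, the mineralocorticoid receptor, which also responds to aldosterone outside the brain, had the same order of arrays. It read 10.97 and 10.59 in the TCQA arrays, against 11.17 and 11.02 in the water arrays. The groups did not overlap, but the gap between them was 0.05, narrower than the 0.39 between the TCQA arrays. The difference was -0.31 (SE 0.22), with -0.12 without TCQA 2 and -0.51 without TCQA 1. For both receptors the lowest of the 4 values was that of TCQA 2.

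Hsd11b1 encodes the enzyme that regenerates active glucocorticoid inside cells. It read 8.03 and 7.91 in the TCQA arrays, against 7.89 and 7.84 in the water arrays. The groups were separated by 0.02 and differed by 0.11 (SE 0.19), less than the error of the difference, and by 0.05 without TCQA 1 and 0.17 without TCQA 2. Its partner H6pd supplies the reducing cofactor for that reaction. H6pd read 7.11 and 6.62 in the TCQA arrays and 7.18 and 7.37 in the water arrays. The H6pd difference of -0.41 was -0.17 without TCQA 2 and -0.65 without TCQA 1. Hsd11b2, which inactivates glucocorticoid, averaged 4.47 in the TCQA arrays and 4.79 in the water arrays, both below the negative control median (6.98).

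Among the response genes, Fkbp5 had the widest difference. This immunophilin cochaperone of the receptor read 12.71 and 13.17 in the TCQA arrays, against 12.23 and 11.75 in the water arrays. Both TCQA values were above both water values, with a gap of 0.48 between the groups, the same size as the spread within each group (0.46 in TCQA and 0.48 in water). The difference was 0.95 (SE 0.26), or 1.93-fold, just short of the 2-fold change that the study required. It ranged from 0.71 to 1.19 when each array was left out in turn.

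Tsc22d3, also known as Gilz, encodes a leucine zipper protein that mediates anti-inflammatory actions of glucocorticoid. It read 11.67 and 12.23 in the TCQA arrays, against 11.40 and 11.19 in the water arrays. Its arrays had the same order as those of Fkbp5, with TCQA 2 highest and water 2 lowest. The groups were 0.27 apart, while the TCQA arrays differed by 0.56. The difference of 0.65 (SE 0.25) became 0.37 without TCQA 2, the array with the olfactory bulb markers. Whether the cells behind those markers bear on Tsc22d3 was not tested.

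Zbtb16, also known as Plzf, a zinc finger transcriptional repressor induced by glucocorticoid, read 11.92 and 12.03 in the TCQA arrays, against 11.45 and 11.68 in the water arrays. The gap of 0.23 between the groups was close to the 0.24 between the water arrays. The difference was 0.41 (SE 0.20), with a range of 0.29 to 0.53 over the fits that leave out an array.

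Pdk4 and Sult1a1 had a gap between the groups wider than the spread within either. Pdk4, the mitochondrial kinase that shuts off pyruvate dehydrogenase and spares glucose, read 8.52 and 8.68 in the TCQA arrays, against 7.87 and 7.96 in the water arrays. The groups were 0.57 apart, while the arrays of a group were 0.16 (TCQA) and 0.09 (water) apart. The difference was 0.69 (SE 0.19), or 1.62-fold. Leaving out each array in turn gave 0.61 to 0.77.

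Sult1a1, a sulfotransferase that conjugates phenols and catechols, read 7.73 and 7.60 in the TCQA arrays, against 7.08 and 7.06 in the water arrays. The gap of 0.52 between the groups compared with 0.13 between the TCQA arrays and 0.02 between the water arrays. The difference was 0.59 (SE 0.19), or 1.51-fold, and lay between 0.53 and 0.66 with an array left out. Both water values lay close to the negative control median of 6.98, which leaves the size of the fold uncertain.

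**Figure D1:**
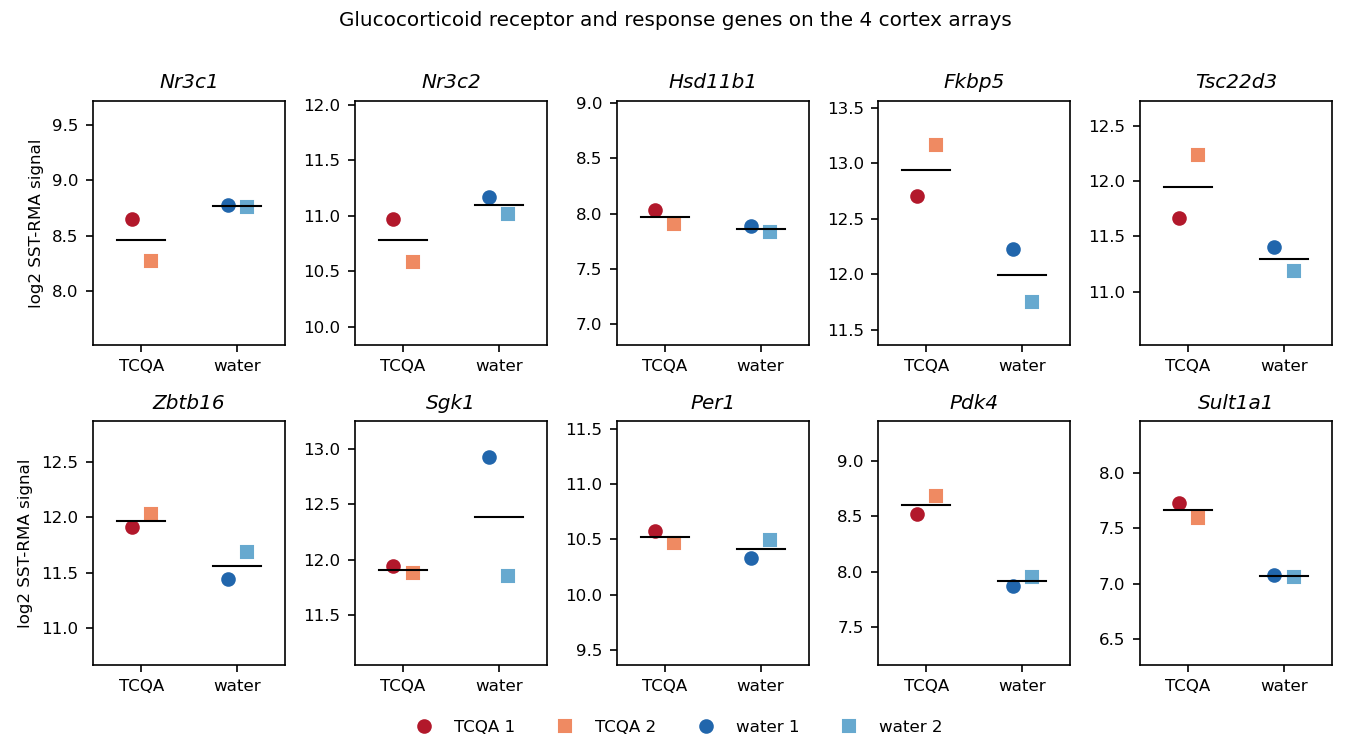
Log2 SST-RMA signal (y axis) of the 10 members on the 4 arrays, TCQA on the left and water on the right of each panel, with every panel spanning the same number of log2 units. Points are arrays and black lines group means (n = 2); Pdk4 and Sult1a1 show tight, separate groups, and Sgk1 shows water 1 at 12.92 above the other arrays.

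Sgk1 and Per1 did not separate the groups. Sgk1, a kinase that regulates ion channels and transporters downstream of both receptors, read 11.94 and 11.88 in the TCQA arrays, against 12.92 and 11.85 in the water arrays. All arrays but water 1 lay between 11.85 and 11.94, and water 1 stood above them. The difference was -0.48 (SE 0.35) with all arrays, 0.06 without water 1 and -1.01 without water 2. Water 1 was also the array with the highest mean of oligodendrocyte, striatal, choroid plexus, thalamic and, narrowly, astrocyte markers. The part of these markers' cells in the Sgk1 value was not tested. Of the 8 members with a window, Sgk1 was the one whose window held the full receptor element. The 6 Sgk1 start sites share 1 transcript cluster here, so that the signal cannot be assigned to the start beside that element.

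Per1, a clock repressor that glucocorticoid also induces directly, read 10.57 and 10.47 in the TCQA arrays, against 10.33 and 10.50 in the water arrays. The groups overlapped, and the difference of 0.10 (SE 0.19) was smaller than its error. Clock transcripts vary over the day, and the labels do not give the hour at which tissue was taken. Per2, its paralogue, read 9.20 and 9.22 in the TCQA arrays and 9.11 and 9.30 in the water arrays, also overlapping.

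Over the 10 members, 6 had both TCQA arrays above both water arrays (Hsd11b1, Fkbp5, Tsc22d3, Zbtb16, Pdk4 and Sult1a1), an arrangement found for 19.9% of all 19572 transcript clusters. The reverse arrangement held for 2 (Nr3c1 and Nr3c2), against 19.2% of all transcript clusters. The gap between the groups exceeded the spread within both groups for 2 members (Pdk4 and Sult1a1), against 6.18% of all. With limma, 4 members had an unadjusted p under 0.05, all higher in TCQA (Fkbp5, Tsc22d3, Pdk4 and Sult1a1), against 3.48% of all transcript clusters higher and 3.89% lower. With an array left out, the members higher at that p were 3 (TCQA 1 left out), 1 (TCQA 2), 2 (water 1) and 1 (water 2), and Sgk1 was lower at that p without water 2 (-1.01). When a change above 2-fold was required as well, as in the study's cutoffs, 0 of the 10 passed, against 0.664% of all (0.245% higher and 0.419% lower). Without TCQA 1 or without water 1 Fkbp5 passed those cutoffs as higher (1.18 and 1.19), and without water 2 Sgk1 passed them as lower (-1.01). With Benjamini-Hochberg adjustment 0 of 19572 passed, with a smallest adjusted p of 0.642 by limma, and 2 passed without TCQA 1. Since the members were chosen from this contrast, nothing is read from these counts. Their median difference was 0.26, against 0.0028 over all transcript clusters.

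**Figure D2:**
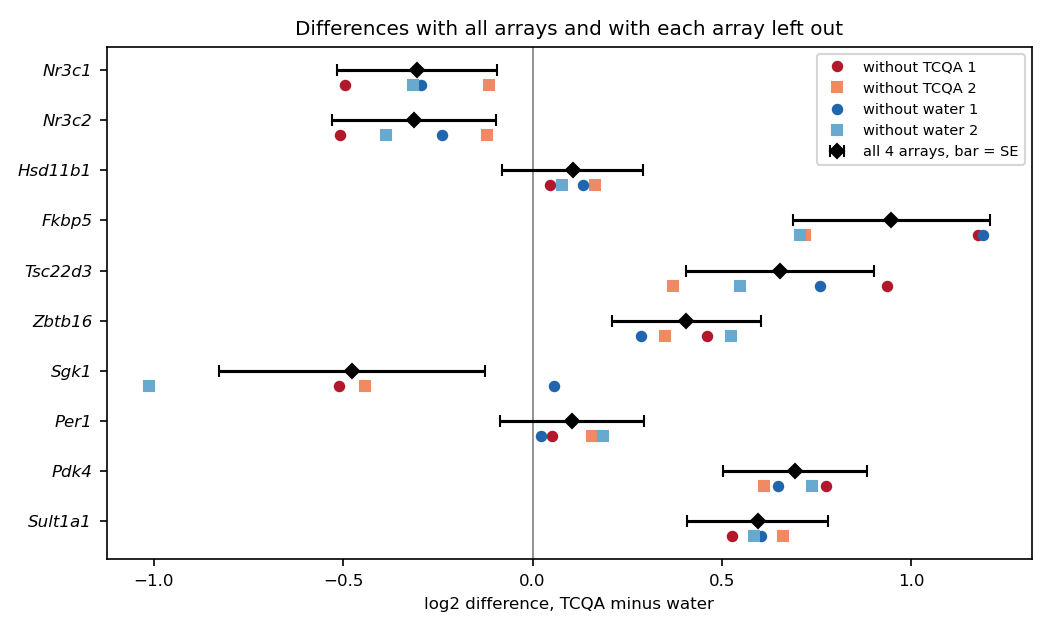
Log2 difference of TCQA minus water (x axis) for each member, with all 4 arrays (diamonds, bars are limma SEs) and with each array left out in turn (coloured points). Sgk1 moved from -0.48 to 0.06 without water 1, both receptors to -0.12 without TCQA 2, and Pdk4 and Sult1a1 stayed between 0.53 and 0.77.

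The genes around the receptor were followed in 10 further lists with 213 measured genes. Of these, 16 were higher and 3 lower with an unadjusted p under 0.05 by limma, or 7.51% and 1.41%, beside 3.48% and 3.89% of all transcript clusters. Adjusted p-values from limma for the 19 lay between 0.642 and 0.673, and the count was 6 without TCQA 2. The counts of positive differences below stand beside 50.5% of all transcript clusters, and none of them is a test of a list. Some lists were dim. A mean below the negative control median was found for 13 of 18 steroid genes and 13 of 18 of the corticotropin-releasing hormone axis. It was also found for 17 of 49 other response genes and 6 of 11 sulfation genes, beside 9738 of all 19572 transcript clusters. Counts and medians of these lists rest in part on such signals.

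Other known glucocorticoid response genes were mostly higher in TCQA: 39 of 49 had a positive difference, with a list median of 0.20. At that p, 7 were higher and 2 lower, which became 2 and 0 without TCQA 2 and 3 and 1 without water 2. Slc2a1, which carries glucose across the blood-brain barrier, read 14.87 and 14.97 in the TCQA arrays, against 14.19 and 14.13 in the water arrays (difference 0.77, SE 0.19). Cdkn1a, a cell cycle inhibitor also induced by DNA damage, read 9.81 and 10.91 in the TCQA arrays, against 9.12 and 8.73 in the water arrays (1.44, SE 0.37). The Cdkn1a difference was 0.89 without TCQA 2. Gpd1, glycerol-3-phosphate dehydrogenase, differed by 0.61 (SE 0.20) and missed the unadjusted threshold without TCQA 2 (0.48), without water 1 (0.58) and without water 2 (0.64). Angptl4, a secreted lipase inhibitor, was lower, with means of 5.02 in TCQA and 5.63 in water that both lay below the negative control median (-0.61, SE 0.19). It missed the threshold without TCQA 1 (-0.64), TCQA 2 (-0.58) or water 2 (-0.52). Klf9, a transcription factor often used as a readout of both receptors, read 14.34 and 14.50 in the TCQA arrays and 14.12 and 14.03 in the water arrays, a difference of 0.34 (SE 0.19) that did not reach it.

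Receptor chaperones and cochaperones showed smaller differences, with 12 of 18 positive and a median of 0.09, which was 0.18 without TCQA 1, -0.04 without TCQA 2 and 0.0019 without water 1. The 1 gene with an unadjusted p under 0.05 was Ppid, a cyclophilin cochaperone of the receptor, at 13.01 and 13.13 in the TCQA arrays, against 12.54 and 12.63 in the water arrays. Its difference of 0.49 (SE 0.19) missed the threshold without any one array (0.43 to 0.55). Fkbp4, the immunophilin that competes with Fkbp5 and favours nuclear entry, read 10.71 and 10.69 in the TCQA arrays, against 10.82 and 10.95 in the water arrays. Its groups did not overlap, in the direction opposite to Fkbp5, but the difference of -0.18 (SE 0.19) was within its error. Among coregulators, 16 of 23 differences were positive and 0 reached an unadjusted p under 0.05 by limma, with a median of 0.06 that was -0.0069 after quantile normalisation. Carm1, a methyltransferase coactivator, had the smallest p, with means of 12.76 in TCQA and 12.30 in water (0.46, SE 0.19).

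Genes of steroid supply and transport, with other steroid receptors, gave 2 higher and 1 lower of 18 at an unadjusted p under 0.05, with a median of 0.05 that was -0.02 without water 2. Abcb1a, the efflux pump of brain endothelium that limits entry of glucocorticoids, read 8.51 and 8.64 in the TCQA arrays, against 7.56 and 8.11 in the water arrays (0.74, SE 0.24). It missed the threshold without TCQA 2 (0.68) and without water 1 (0.46). Pgr, the progesterone receptor, read 10.82 and 10.84 in the TCQA arrays, against 9.95 and 10.42 in the water arrays (0.65, SE 0.22). It missed the threshold without TCQA 1 (0.65), TCQA 2 (0.64) or water 1 (0.41). Hsd3b2, a steroid dehydrogenase, differed by -0.64 at levels under the negative control median (4.70 in TCQA and 5.34 in water), and missed the threshold without TCQA 1 (-0.73), TCQA 2 (-0.55) or water 1 (-0.37). In the corticotropin-releasing hormone axis, 11 of 18 differences were positive (6 of 18 without TCQA 2), with a median of 0.10 that was -0.08 without TCQA 2, and 1 gene reached an unadjusted p under 0.05. It was Adcyap1, the neuropeptide PACAP, with means of 6.13 in TCQA and 5.26 in water, both below the negative control median (0.87, SE 0.23, and 0.63 without TCQA 2, which missed the threshold). Crh itself read 6.58 and 6.59 in the TCQA arrays, against 6.83 and 6.96 in the water arrays, all below that median.

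Partners of the response genes were followed as well. Around Sgk1, 12 of 19 genes listed for the mineralocorticoid and Sgk1 pathway were higher. The 19 include Pdk1, a pyruvate dehydrogenase kinase that is also counted around Pdk4. Foxo3, a transcription factor that Sgk1 inactivates by phosphorylation, had an unadjusted p under 0.05 by limma. Foxo3 read 8.03 and 7.97 in the TCQA arrays, against 7.57 and 7.31 in the water arrays (0.56, SE 0.20), and missed the threshold without TCQA 1 (0.53), TCQA 2 (0.59) or water 2 (0.43). The paralogue Sgk3 read 9.96 and 10.18 in the TCQA arrays, against 9.78 and 9.60 in the water arrays, without reaching the threshold. Its groups did not overlap, an arrangement found for 19.9% of all transcript clusters. With an array left out the Sgk3 difference lay between 0.27 and 0.49. Around Pdk4, 13 of 14 genes had a positive difference (median 0.19), which was 8 of 14 without water 1. Pdpr, a regulator of the phosphatase that opposes Pdk4, read 8.57 and 8.75 in the TCQA arrays, against 7.75 and 8.19 in the water arrays (0.69, SE 0.23), and missed the threshold without TCQA 2 (0.60) and without water 1 (0.47). Pdk2, the paralogue of Pdk4, overlapped between the groups, at 12.01 and 12.08 in the TCQA arrays and 11.86 and 12.14 in the water arrays.

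Around Sult1a1, 8 of 11 sulfation genes had a positive difference and Sult2b1, a sterol sulfotransferase, was 2.02-fold higher. Sult2b1 read 9.08 and 9.80 in the TCQA arrays, against 8.14 and 8.72 in the water arrays (1.01, SE 0.32), and was 0.65 without TCQA 2 and 0.73 without water 1, both short of the threshold. Around Per1, 13 of 20 clock genes had a positive difference, with a median of 0.10 that was -0.04 without water 1. The 1 clock gene with an unadjusted p under 0.05 was Rorb (0.54, SE 0.22), which is also an excitatory neuron marker and which missed it without TCQA 1 (0.57), TCQA 2 (0.51) or water 1 (0.32). Per3 was lower, at 11.80 and 11.81 in the TCQA arrays, against 12.16 and 12.18 in the water arrays (-0.37, SE 0.18), without reaching the threshold.

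Immediate early genes, like Sgk1 and Per1, are known to be induced by neuronal activity. Of 28 measured, 21 had a positive difference (median 0.15), and 17 of 28 did without TCQA 2. The 1 with an unadjusted p under 0.05 was Nr4a2, an orphan nuclear receptor, at 11.45 and 11.42 in the TCQA arrays, against 10.58 and 11.03 in the water arrays (0.63, SE 0.22). It missed the threshold without TCQA 1 (0.62), TCQA 2 (0.64) or water 1 (0.40).

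**Figure D3:**
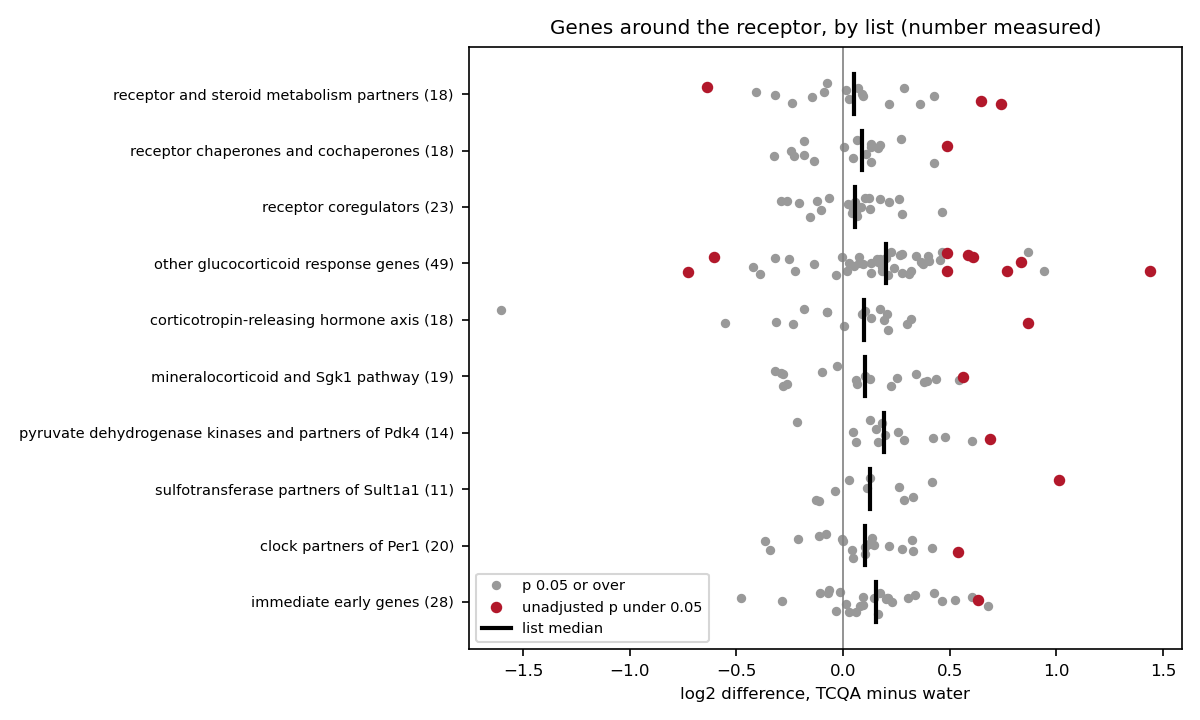
Log2 difference of TCQA minus water (x axis) for every measured gene of the 10 lists around the receptor, with the number measured in brackets; points are genes, red where limma's unadjusted p was under 0.05, and black bars are list medians. The medians lie between 0.05 for steroid metabolism partners and 0.20 for other glucocorticoid response genes, beside 0.0028 for all transcript clusters.

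Vascular markers were higher in the TCQA arrays, as were most of the response genes. Endothelial and mural markers were higher in TCQA for 13 of 14 genes, 4 of them with an unadjusted p under 0.05 (2 of them when TCQA 2 was left out and 1 when water 1 was), and their mean was 9.72 to 9.81 in the TCQA arrays, against 9.42 to 9.49 in the water arrays. Of the 14, 2 had a mean below the negative control median. Over all transcript clusters, 50.5% had a positive difference and 3.48% were higher with an unadjusted p under 0.05 by limma. The list shares Slc2a1 and Abcb1a with the lists above, and both are among the 4 markers under that p. Astrocyte markers, for comparison, were higher for 6 of 12, with a median of 0.02. The direction was not particular to vascular cells. The list for excitatory cortical neurons also averaged more in both TCQA arrays (12.24 and 12.22) than in either water array (11.68 and 12.14). Of its 11 differences 9 were positive, and 6 without water 1. The list for inhibitory neurons had 9 of 12 positive differences and a median of 0.33, but that median was -0.06 without TCQA 2. The part of vascular, choroid plexus or other cells in the values of Fkbp5, Tsc22d3, Pdk4 and Sult1a1 was not tested.

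**Figure D4:**
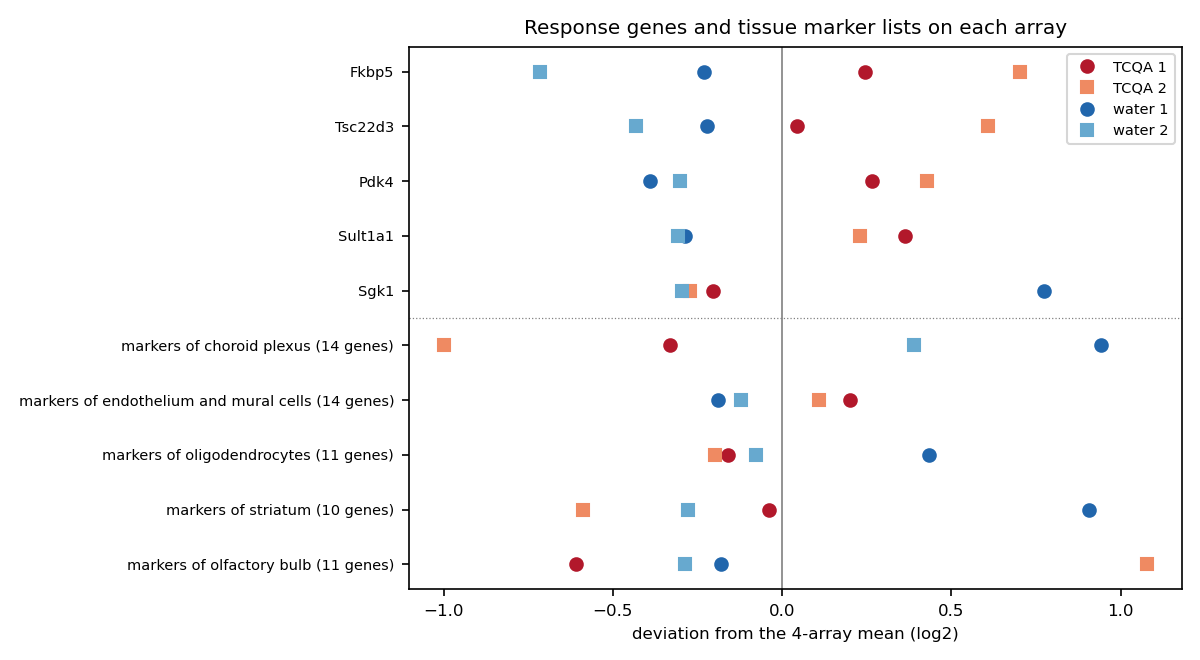
Deviation of each array from the 4-array mean in log2 units (x axis), for 5 response genes above the dotted line and for the mean of 5 marker lists below it. Fkbp5, Tsc22d3, Pdk4 and Sult1a1 place both TCQA arrays right of both water arrays, as the mean of the 14 endothelial and mural markers does. Sgk1 is highest in water 1, as are the choroid plexus, oligodendrocyte and striatal lists.

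The mean profile of the 7 response members, centred on each gene's 4-array mean, was 0.14 and 0.28 in the TCQA arrays and -0.12 and -0.30 in the water arrays. Among the members, Sult1a1, Zbtb16 and Pdk4 lay nearest to it, at root mean square distances of 0.14, 0.15 and 0.17 log2 units over the 4 arrays, and Sgk1 was farthest of the 7, at 0.55. Outside the members, the 5 nearest of 9744 genes at or above the median signal were Clasp1, Prr14, Fam185a, Rmi1 and Ccnt1, at distances of 0.0094 to 0.019. Clasp1, a microtubule plus-end protein, read 12.12 and 12.24 in the TCQA arrays, against 11.86 and 11.65 in the water arrays. With 4 arrays many genes share such a profile, and the likeness is a description.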

How the data were processed

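Gene expression was measured on 4 Clariom S mouse arrays of SAMR1 brain cortex, 2 after TCQA and 2 after water, from 100 ng of RNA each. Per the submitters' design text, the authors made the deposited log2 values by signal space transformation RMA in the Transcriptome Analysis Console 4.0.2, and the processing notes name RMA and limma. These steps correct background, equalise the arrays and summarise probes, so that the values carry no depth, and precision is limited by having 4 arrays. The authors' filters on detection (0.05) and on the control area under the curve (0.7) rest on probe-level values not used here. The build behind the array annotation was not given in the sources used.

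Symbols came from the platform annotation, which gives 1 symbol for 19572 of 28846 rows, several for 0 and none for 9274. All 19572 gene identifiers matched RefSeq genes on GRCm38.p6. Where 55 symbols had more than 1 row, the row with the highest mean stood for the gene. limma 3.58.1 in R 4.3.3 (lmFit and eBayes, 2-sided, no trend, no block) was fitted over all 19572 rows with Benjamini-Hochberg adjustment, and SEs come from that fit. The fit was run on simulated data with independent noise and variances drawn from its own fitted prior. That run checks the code and cannot show how the p-values behave on these arrays, which differed in tissue markers. The median SE was 0.22, so that an unadjusted p of 0.05 corresponds to 1.43-fold.

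The members and lists (10 around the receptor, 13 of tissue markers) were chosen with earlier results of these data known. Of 386 listed symbols 348 were measured. Named are the members, Actb, Gapdh and Hprt, up to 4 genes of smallest p per list, paralogues and partners of members, and the 5 genes nearest to the response profile. Klf9 was picked with its values in view. The alternatives were the variance prior, array weights, normalisation, centring, dim signal, duplicate rows, the replicate number as a block, and leaving out each array in turn, where the lone array of a group is assumed to vary like the other group. Promoter windows are RefSeq sequences. Python 3.11.15 with matplotlib 3.10.9 made the figures.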

Additional observations from a re-analysis of the deposited data

How the results depend on the processing

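The median difference of the members (0.26) was 0.20 after quantile normalisation and between 0.21 and 0.36 with an array left out, and the count of members with both TCQA arrays above both water arrays (6) was 5 after quantile normalisation. Leaving out an array can only keep or raise that count (6 to 7), so it says nothing of its stability. Among single members, Sgk1 changed sign without water 1. Leaving out dim rows, averaging duplicate rows and the replicate block cannot change a member's difference here. Of 90 list medians 5 changed sign, that of the coregulators after quantile normalisation and the others with an array left out. The replicate block and averaging duplicate rows left every list median as it was, so the 90 overstate how much was tried. The counts over all transcript clusters depended more on the arrays. The 130 past the study's criteria became 56 when dim rows were left out, and 218 to 428 with an array left out. Without dim rows fewer rows were tested and the SEs also changed (for Sult1a1 from 0.187 to 0.160). The parts of these in the lower count were not separated. The 1443 with an unadjusted p under 0.05 became 942 without dim rows, 984 with the variance prior fitted over every row and 1011 to 1735 with an array left out. The 19 over the other lists became 6 to 21 with an array left out. The cause of these last changes was not tested. With the replicate number as a block the counts were 130 and 1497, and 18 over the other lists. The labels do not say whether the shared numbers pair the samples. Deviations of equally numbered arrays correlated with r = -0.0032 over 19572 transcript clusters, which are not independent. With so few arrays this value cannot decide whether the samples were paired. Signal over background limits the sizes given for Sult1a1, Pdk4, Hsd11b1, Nr3c1 and Per1, which lay below the 95th percentile of the negative controls (11.06) on every array, and for Nr3c2, which did on 3 of 4.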

Other observations

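The full receptor element was found in 3 start-site windows, and the genes of such windows with values here are Sgk1 and Acnat2. Acnat2, an acyltransferase-like gene, read 4.84 and 5.10 in the TCQA arrays, against 4.36 and 4.99 in the water arrays, all below the negative control median. A looser form of the element, GNACANNNTGTNC, occurred in 156 of 32851 windows (0.475%). The 81 measured genes with it had a median difference of -0.06, and 1 was higher and 4 were lower in TCQA with an unadjusted p under 0.05 by limma. The hexamer was shared by 2882 measured genes, with a median of -0.02, of which 3.37% were higher and 5.76% lower at that threshold. Over all 15691 measured genes with a window the median was 0.0036, with 3.52% higher and 3.82% lower. These genes were not chosen by level, and no test was made of the difference.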
